A study of Mus musculus with 24 samples.

Results

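The last step of a dose series of AZD5582 was examined: 3 libraries at 1 µM were set against 3 libraries at 0.5 µM, which are 6 of the 24 libraries of the series. They were chosen by their labels alone, as the cultures of the set named DC105 that had been grown in GM-CSF and given one of those doses. All came from mouse bone marrow cells, from wild-type C57BL/6JRj animals or animals carrying Cas9-EGFP (which of the 2 applied to a library was not stated), grown in 20 ng/ml GM-CSF to day 8 and then exposed for 24 h. The same scheme gave the 3 DMSO libraries and the 3 libraries at 0.1 µM used below as points of reference. Another 3 libraries, taken at day 8, entered the filter on low counts, the scaling and the shared estimate of the spread. They were also used in a check of the culture numbers. The labels number the cultures 1 to 3 at each dose without saying whether a number stands for an animal, a pool or a dish, so p-values measure the spread between these samples, which may be technical. Such cultures hold dendritic cells beside macrophage-like cells, and in bulk RNA fewer cells of a type cannot be told apart from less RNA per cell.

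AZD5582 is a dimeric mimetic of the N-terminus of SMAC that binds the inhibitor of apoptosis (IAP) proteins cIAP1, cIAP2 and XIAP. cIAP1 and cIAP2 are ubiquitin ligases that keep the kinase NIK low, and their loss lets NIK build up and process NF-kB2 p100 to p52, the non-canonical NF-kB pathway. In dendritic cells this pathway normally runs downstream of CD40 and related receptors and is known for maturation: co-stimulatory molecules, the lymph-node homing receptor CCR7 and cytokines. The comparison asks whether the RNA response to the compound had levelled off by 0.5 µM and which genes still differed beyond that dose.

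The libraries held 37886024 to 85820558 counts assigned to genes. Library 1 at 1 µM stood apart from the other 5: mitochondrial DNA genes took 8.04% of its counts against 3.96% to 4.90% in the others, and it had the fewest detected genes (18550). On the first principal component of the 6 libraries, which held 50.7% of the variance, it lay at 32.4 and the other 5 between -9.83 and -2.54. Dose accounted for 17.4% of the summed squares over 12265 genes, culture number for 50.5% with 2 degrees of freedom, and the remainder for 32.1% with 2. Several groups and genes in which this library stood apart are given with and without it.

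No gene passed the test between 0.5 and 1 µM. Of 16152 genes tested with edgeR's quasi-likelihood test, 0 (0.0%) had an adjusted p under 0.05, and the smallest adjusted p was 0.43. At an unadjusted p under 0.05 there were 870 genes (5.39%), of which 350 were higher (2.17%) and 520 lower (3.22%) at 1 µM. These numbers moved with single libraries. Without library 1, 2 or 3 of 1 µM the higher ones numbered 120, 933 and 846 and the lower ones 533, 945 and 720, and without library 1 of 0.5 µM they numbered 224 and 322. DESeq2 called 8 genes, all lower, with 985 at an unadjusted p under 0.05.

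The intervals show how large a further difference these libraries allow. For 9105 genes (56.4%) the 95% interval of the log2 difference lay inside a 1.5-fold change in either direction. Among the 8152 genes whose mean reached 10 CPM at either dose, 7491 (91.9%) were bounded in this way. Below that level 1614 of 8000 (20.2%) were. CPM are counts per 1000000 counts of a library, with the library size scaled by TMM. The median half-width of the interval was 0.24 on the log2 scale for the better expressed genes. None of these 8152 genes differed by 2-fold, and 8 had a fitted difference of at least 1.5-fold. A tighter bound of 0.32 on the log2 scale in either direction held for 3855 genes (23.9%).

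**Figure D1:**
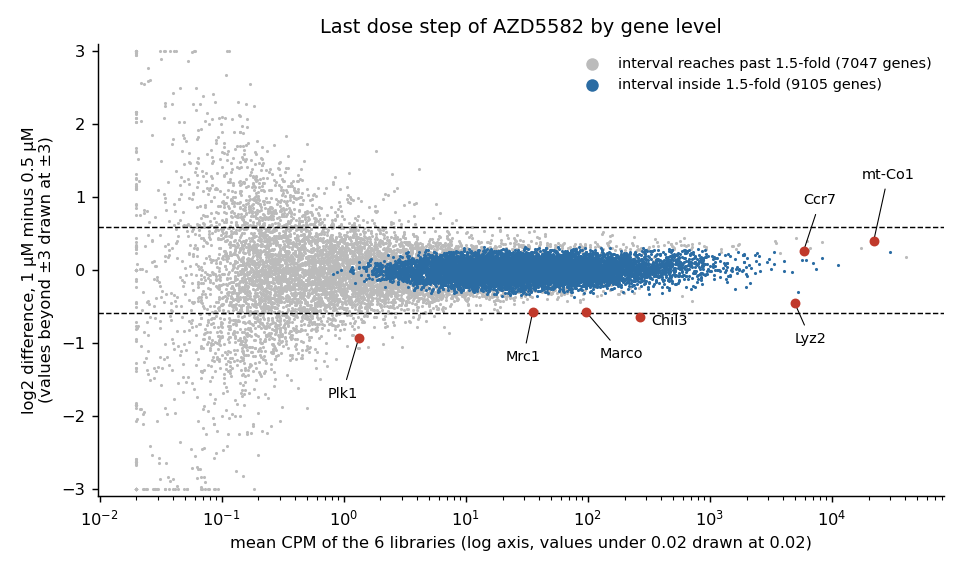
Each point is 1 of the 16152 genes tested. The horizontal axis is its mean CPM over the 6 libraries on a log scale, and the vertical axis is its fitted log2 difference, 1 µM minus 0.5 µM. Dashed lines mark 1.5-fold, blue points are the 9105 genes whose 95% interval lies between the lines, and red points are genes named in the text. The spread narrows with level, and above 10 CPM almost all points lie between the lines.

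The genes nearest to a call were lower at 1 µM, and the following were picked after their values were seen. Chil3, a chitinase-like protein of alternatively activated macrophages, measured 311, 345 and 323 CPM at 0.5 µM and 139, 229 and 255 at 1 µM, a log2 difference of -0.65 ± 0.16 (SE, adjusted p = 0.66). It was the one protein-coding gene above 10 CPM that combined a fitted difference of 1.5-fold with groups that did not overlap, and without library 1 of 1 µM its difference was -0.43. Clec5a, a C-type lectin of myeloid cells that signals through DAP12, measured 91.9, 84.7 and 82.7 CPM and then 71.0, 62.8 and 67.1, a difference of -0.37 ± 0.09 (adjusted p = 0.61). DESeq2 called Clec5a, and also Iqgap2, Fmnl3, Fry and Trim30b, which lay below 10 CPM at both doses. Of these, the IQGAP scaffold protein Iqgap2 measured 4.68, 5.13 and 3.32 CPM at 0.5 µM and 2.68, 2.69 and 2.63 at 1 µM. The formin Fmnl3 measured 6.49, 6.36 and 4.71 CPM and then 3.40, 4.18 and 3.24. In each of these 3 genes all 1 µM libraries lay under all 0.5 µM libraries, as they did for 907 of all genes tested (5.62%), with 567 (3.51%) the other way.

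RNA of the genes that encode the targets of the compound gave no call in this step, and the 3 intervals lay inside 1.5-fold. Birc2, which encodes cIAP1, measured 222, 211 and 251 CPM at 0.5 µM and 166, 222 and 237 at 1 µM, a log2 difference of -0.13 ± 0.12 with a 95% interval from -0.39 to 0.13. Birc3 (cIAP2) differed by -0.05 ± 0.09 (interval -0.23 to 0.14) and Xiap by -0.13 ± 0.14 (interval -0.42 to 0.16). The groups overlapped for all 3 genes. Of the 13 members of the IAP family and its antagonists, 0 were called and 9 (69.2%) were bounded within 1.5-fold, beside 56.4% of all genes. The number lower at an unadjusted p under 0.05 lay between 0 and 3 when any 1 of the 6 libraries was left out. With all 6 libraries it was 1 (7.69%, beside 3.22% of all genes). That one was Naip5, a flagellin sensor of the inflammasome, at 10.2, 9.69 and 10.5 CPM and then 6.57, 8.90 and 9.07, a difference of -0.31 that was -0.17 without library 1 of 1 µM. Birc6, a very large ubiquitin-conjugating IAP, measured 57.6 CPM in library 1 of 1 µM and 90.05 to 100.7 CPM in the other 5 libraries.

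The NF-kB genes gave no call. Of 16 NF-kB subunits and inhibitors, all above 10 CPM, 15 (93.8%) had intervals inside 1.5-fold, close to the 91.9% of all genes at that level, 0 were called, and the median log2 difference was 0.05 beside -0.01 over all genes tested. Nfkb2, the p100 precursor, measured 758, 849 and 891 CPM at 0.5 µM and 1051, 871 and 881 at 1 µM, a difference of 0.17 ± 0.11 that was 0.074 without library 1 of 1 µM. Its partner Relb measured 455, 502 and 577 CPM and then 581, 495 and 576 (0.11 ± 0.11), and the canonical subunit Rela differed by 0.13 ± 0.10. Nfkbib (IkB-beta) was the 1 member with an unadjusted p under 0.05 (6.25%, beside 2.17% of all genes higher at that p). It measured 156, 171 and 179 CPM and then 235, 183 and 189, a difference of 0.26 ± 0.10 that was 0.14 without library 1 of 1 µM. Tnfaip3, the deubiquitinase A20, measured 853, 789 and 839 CPM and then 518, 809 and 888. Its fitted difference was -0.16 ± 0.14, and it was 0.04 without library 1 of 1 µM, the one library that was low.

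The NIK, IKK and TRAF group had all 22 members inside 1.5-fold, with a median difference of -0.03 that was 0.03 without library 1 of 1 µM. Map3k14, which encodes NIK itself, measured 142, 158 and 152 CPM at 0.5 µM and 129, 164 and 148 at 1 µM, a difference of -0.03 ± 0.10 (interval -0.24 to 0.17). Traf3, the adaptor that brings NIK to the cIAPs, differed by -0.07 ± 0.10, and the NF-kB target Traf1 by 0.13 ± 0.12. Sharpin, a subunit of the linear ubiquitin ligase, was the single member at an unadjusted p under 0.05, with a difference of 0.17 ± 0.08. That is 4.55% of the group, beside 2.17% of all genes higher at that p. The IKK-related kinase gene Ikbke measured 17.9, 16.6 and 14.9 CPM and then 14.9, 15.9 and 12.7, so the groups overlapped.

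Maturation genes gave no call and leaned slightly higher. Of 38 co-stimulation and maturation genes, 28 were higher and 10 lower, 0 were called, 0 had an unadjusted p under 0.05 (6 were higher at that p without library 2 of 1 µM), and 31 were bounded within 1.5-fold. Cd40, the receptor for CD40 ligand, measured 343, 361 and 330.5 CPM at 0.5 µM and 426, 355 and 345 at 1 µM, a difference of 0.12 ± 0.13 (interval -0.15 to 0.39). The CD28 ligands Cd80 and Cd86 differed by 0.01 ± 0.17 and 0.04 ± 0.13, and Tnfsf4 (OX40 ligand) by 0.06 ± 0.15. In the step before, from 0.1 to 0.5 µM, these 4 genes had risen by 0.47, 0.68, 0.51 and 0.88 on the log2 scale (edgeR, adjusted p = 0.023, 0.016, 0.016 and 0.00064).

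Ccr7 was 1 of 2 of the 38 maturation genes whose groups did not overlap. Both were higher at 1 µM, as were 3.51% of all genes without overlap. It measured 5159, 5328 and 5503 CPM at 0.5 µM and 7533, 5655 and 6043 at 1 µM, a difference of 0.27 ± 0.13 (adjusted p = 0.83, interval -0.01 to 0.55), and 0.13 without library 1 of 1 µM. Il15, a cytokine that sustains NK and memory CD8 T cells, measured 88.0, 81.0 and 90.1 CPM and then 117, 85.5 and 92.9. Irf8, a transcription factor of the dendritic lineage, measured 1647, 1758 and 1778 CPM and then 2133, 1923 and 1913 (0.20 ± 0.10). The median of the 38 maturation genes was 0.10, and it was 0.04 without library 1 of 1 µM. Among same-numbered libraries their median was 0.21, 0.03 and 0.04.

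**Figure D2:**
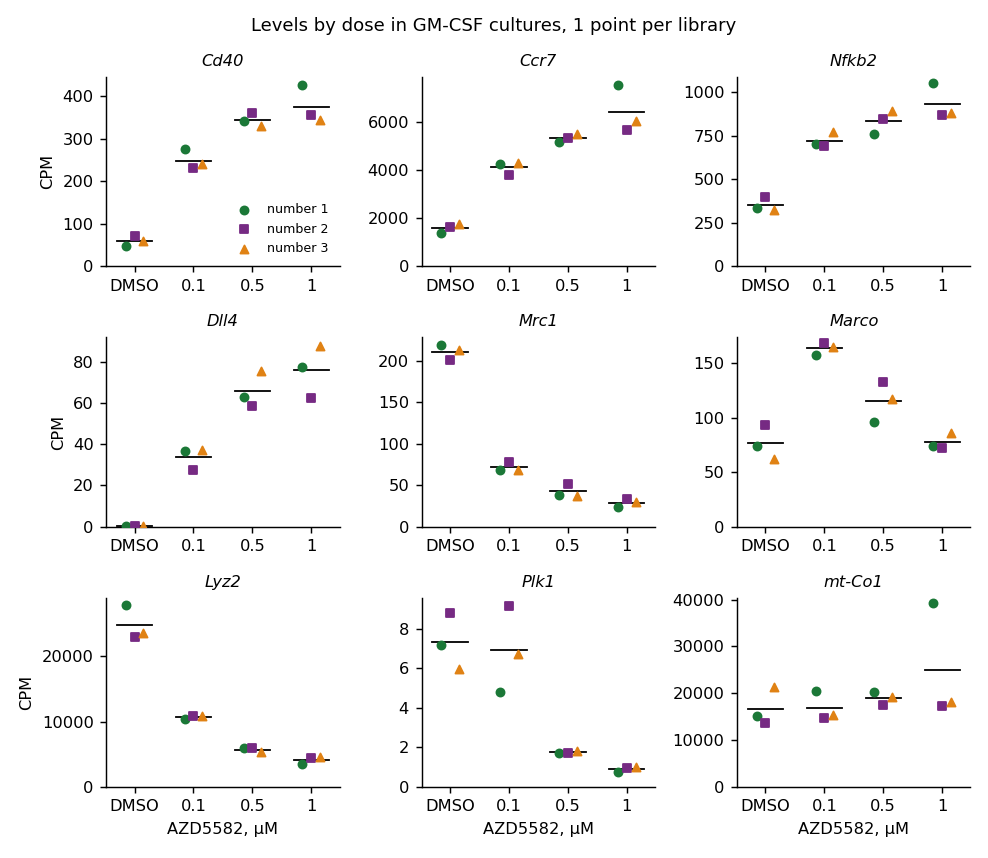
Levels of 9 genes in CPM (vertical axes from 0) at DMSO, 0.1, 0.5 and 1 µM AZD5582, with 1 point per library, marked by its culture number, and a line at the mean of 3. From 0.5 to 1 µM Cd40, Ccr7, Nfkb2 and Dll4 differ by less than they did from DMSO to 0.1 µM, Mrc1, Marco, Lyz2 and Plk1 lie lower in every 1 µM library, and mt-Co1 is high in library 1 of 1 µM alone.

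Cytokine genes were measured less tightly. Of 26 inflammatory cytokine genes 21 could be tested, 0 were called or had an unadjusted p under 0.05, and 8 were bounded within 1.5-fold. Il6 measured 171, 138 and 118 CPM at 0.5 µM and 189, 137 and 122 at 1 µM, a difference of 0.07 ± 0.26 with an interval from -0.50 to 0.64. Tnf measured 18.9, 14.8 and 15.2 CPM and then 13.6, 12.9 and 14.9 (-0.24 ± 0.17). Ptgs2, the inducible cyclooxygenase, measured 254, 167 and 299.7 CPM and then 212, 181 and 307, and its interval ran from -0.89 to 0.80. The interval of Ptgs2 spans a 1.5-fold difference in either direction. That of Il6 spans it only upward, and that of Tnf, from -0.60 to 0.12, only downward.

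Dll4, a Notch ligand, had the largest rise of the well expressed genes at 0.1 µM and was still somewhat higher at each later dose. It measured 0.149 to 0.351 CPM in DMSO, 27.5 to 36.95 at 0.1 µM, then 63.1, 58.6 and 75.5 at 0.5 µM and 77.6, 62.7 and 87.5 at 1 µM. All same-numbered libraries were higher at 1 µM, but the groups overlapped and the difference was 0.21 ± 0.20 (interval -0.21 to 0.63). Of 18 Notch ligands, receptors and targets tested, 0 were called and 6 were bounded. Unlike Dll4, 14 of the 18 were fitted lower, and 4 higher, with a median of -0.11. That median lay between -0.17 and -0.03 when any 1 library of the 2 doses was left out. In 6 members (33.3%) all same-numbered libraries were lower at 1 µM, beside 15.0% of all genes. The receptor gene Notch1 lay lower, at 28.8, 23.5 and 17.6 CPM and then 17.1, 20.5 and 16.7 (-0.36 ± 0.14, adjusted p = 0.83).

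No gene of cell death and survival was called. Of 37 tested, 1 was higher and 3 were lower at an unadjusted p under 0.05 (2.703% and 8.11%, beside 2.17% and 3.22% of all genes), and 29 were bounded within 1.5-fold. The numbers higher and lower were 2 and 0 without library 1 of 0.5 µM, 5 and 0 without its library 2, 0 and 3 without its library 3, and 0 and 4, 3 and 1, and 6 and 2 without library 1, 2 or 3 of 1 µM. The survival gene Bcl2l1 (BCL-XL) measured 412, 469 and 411 CPM at 0.5 µM and 507, 444 and 423 at 1 µM, a difference of 0.09 ± 0.10. Cflar (c-FLIP), which blocks caspase-8, differed by -0.11 ± 0.09. The 4 members at an unadjusted p under 0.05 were the inflammatory caspase Casp4 (0.28 ± 0.12), the BH3-only gene Bid (-0.34 ± 0.14), the survival gene Bcl2 (-0.36 ± 0.15) and the necroptosis effector Mlkl (-0.32 ± 0.14).

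Antigen presentation genes were high in 1 of the 3 libraries at 1 µM. Of 22 MHC class I presentation genes 19 were bounded and 0 were called, with a median of 0.10 that was 0.0039 without library 1 of 1 µM. B2m, the class I light chain, measured 5791, 5590 and 5888 CPM at 0.5 µM and 9301, 5599 and 6020 at 1 µM. Psme1, an activator subunit of the proteasome, measured 635, 662 and 699 CPM and then 981, 663 and 719.7. In both genes library 1 was high and the other libraries of 1 µM lay within or close to the 0.5 µM range. Of 16 class II genes 15 were bounded, and H2-Aa measured 2210, 2326 and 2528 CPM and then 3502, 2103 and 2484, a difference of 0.20 that was -0.038 without library 1 of 1 µM. March1, a ubiquitin ligase that takes class II from the cell surface, lay lower in each same-numbered pair, at 60.4, 54.2 and 45.4 CPM and then 50.7, 46.0 and 37.6 (-0.25 ± 0.12, adjusted p = 0.83).

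Of the 39 gene lists described, the monocyte and macrophage list had the most members lower at an unadjusted p under 0.05. Of 28 tested, 22 were fitted lower and 5 higher. None was called, 10 were lower at that p (35.7%, beside 3.22% of all genes) and none was higher at that p. Their median was -0.28 beside -0.01 over all genes, it lay between -0.35 and -0.19 when any 1 of the 6 libraries was left out, and same-numbered libraries gave -0.15, -0.31 and -0.21 on a log2(CPM + 1) scale. In 10 members (35.7%) the groups did not overlap and 1 µM was lower, beside 5.62% of all genes. From 0.1 to 0.5 µM 23 of the 28 had fallen by the test, beside 8.47% of all genes. The list was drawn up with earlier results of these data known, so its direction is not independent support.

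The mannose receptor gene Mrc1 measured 37.9, 51.6 and 37.4 CPM at 0.5 µM and 23.5, 32.7 and 29.3 at 1 µM, a difference of -0.57 ± 0.13 (adjusted p = 0.61), below 200.4 to 218 CPM in DMSO. Lyz2, the lysozyme of myeloid cells, measured 5874, 5952 and 5289 CPM and then 3530, 4419 and 4594 (-0.45 ± 0.13, adjusted p = 0.83). In both genes every 1 µM library lay below every 0.5 µM library. Adgre1 (F4/80) measured 107, 104 and 100.0 CPM and then 57.6, 83.5 and 94.1, and its difference of -0.40 ± 0.13 was -0.22 without library 1 of 1 µM. Mertk, a receptor for the uptake of dying cells, measured 72.2, 68.8 and 72.8 CPM and then 42.4, 61.5 and 65.7, with -0.33 ± 0.13 and, without that library, -0.16. The scavenger receptor Msr1 differed by -0.33 ± 0.13, the lipid receptor Trem2 by -0.29 ± 0.12 and the integrin Itgam (CD11b) by -0.33 ± 0.16. The list member Cd14 went the other way, with a fitted difference of 0.12.

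Marco and Clec5a followed another course over the doses. The scavenger receptor Marco measured 62.1 to 93.1 CPM in DMSO and 158 to 169 at 0.1 µM, then 96.1, 133 and 117 at 0.5 µM and 74.4, 72.4 and 86.0 at 1 µM. Its last step was -0.57 ± 0.14 (adjusted p = 0.61) and -0.54 without library 1 of 1 µM. Clec5a stood at 73.8 to 89.4 CPM in DMSO and 116 to 131 at 0.1 µM, and the values at both higher doses are given above. Both genes were thus highest at 0.1 µM, with 1 µM levels in or below the DMSO range.

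Lysosomal genes were lower by small amounts. All 33 were bounded within 1.5-fold and 0 were called, 26 were lower and 7 higher, and 20 were lower in every same-numbered pair (60.6%, beside 15.0% of all genes). The median was -0.10. Psap, the precursor of the saposins that activate sphingolipid hydrolases, measured 6015, 5670 and 5583 CPM at 0.5 µM and 4366, 4579 and 5135 at 1 µM (-0.29 ± 0.11). Ctsd (cathepsin D) measured 1750, 1933 and 1601 CPM and then 1561, 1339 and 1518 (-0.26 ± 0.12), and Lipa, the lysosomal acid lipase, 554, 497 and 461 and then 407, 408 and 438 (-0.27 ± 0.11). With Laptm5 (-0.31 ± 0.11), 4 members were lower at an unadjusted p under 0.05 (12.1%, beside 3.22% of all genes). That number was 2 without library 1 of 0.5 µM or library 2 of 1 µM, and 8 without library 1 of 1 µM.

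Genes of lipid uptake and export also lay mostly lower. Of 18 tested genes 16 were lower, 0 were called, and 3 were lower at an unadjusted p under 0.05 (16.7%, beside 3.22% of all genes). The median was -0.17, with -0.15 in each of the 3 same-numbered comparisons. Abca1, the cholesterol exporter induced by LXR, measured 111, 94.9 and 87.1 CPM and then 65.6, 86.1 and 68.4 (-0.41 ± 0.15). Plin2, which coats lipid droplets, measured 359, 379.6 and 312 CPM and then 278, 273 and 285 (-0.33 ± 0.12). The fatty acid transporter Cd36 differed by -0.44 ± 0.19. The number at an unadjusted p under 0.05 was 1 without library 1 or library 2 of 0.5 µM. Cholesterol synthesis genes showed the opposite lean, with 18 of 23 higher, a median of 0.09 and 22 bounded. The sterol dehydrogenase Nsdhl measured 11.8, 12.5 and 13.5 CPM and then 18.0, 14.6 and 14.7 (0.32 ± 0.11, adjusted p = 0.83, and 0.22 without library 1 of 1 µM).

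Cell cycle genes were lower and at low levels. Of 40 tested, 34 were lower and 0 were called, with a median of -0.23. At an unadjusted p under 0.05, 6 were lower (15%, beside 3.22% of all genes). The median was -0.13 and the number 2 without library 1 of 1 µM, the number was 10 without library 2 of 1 µM, and the median was -0.11 and the number 3 without library 2 of 0.5 µM. Plk1, the mitotic polo-like kinase, measured 1.72, 1.71 and 1.82 CPM at 0.5 µM and 0.767, 0.968 and 1.00 at 1 µM, a difference of -0.93 ± 0.24 (adjusted p = 0.69). Ccna2 (cyclin A2) measured 2.74, 5.60 and 3.80 CPM and then 0.920, 3.07 and 1.93 (-1.06 ± 0.36), and the spindle checkpoint kinase Bub1b 6.21, 5.65 and 5.55 and then 3.81, 5.36 and 3.67. The replication regulator E2f1 differed by -0.32 ± 0.12. Between 0.1 and 0.5 µM 34 of the 40 had fallen by the test, beside 8.47% of all genes. Over that step Plk1 went from 4.81 to 9.17 CPM down to the values above.

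Interferon-response genes leaned lower. Of 40 tested, 29 were lower and 0 were called, with a median of -0.13. At an unadjusted p under 0.05, 3 were lower (7.5%, beside 3.22% of all genes). The median was -0.05 and the number 1 without library 1 of 0.5 µM, the median was -0.06 and the number 1 without library 3 of 1 µM, and the median was -0.23 and the number 7 without library 1 of 1 µM. The number was also 7 without library 3 of 0.5 µM and 6 without library 2 of 1 µM. Trim30a, whose reads may be shared with close paralogs, measured 71.6, 62.0 and 59.4 CPM and then 39.9, 56.3 and 52.6 (-0.37 ± 0.14). The sialoadhesin gene Siglec1 measured 4.71, 6.64 and 5.23 CPM and then 3.37, 4.74 and 3.07, and the RNA sensor kinase Eif2ak2 23.5, 21.7 and 21.8 and then 19.1, 19.9 and 17.8. Between 0.1 and 0.5 µM 21 of the 40 had fallen by the test, beside 8.47% of all genes.

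**Figure D3:**
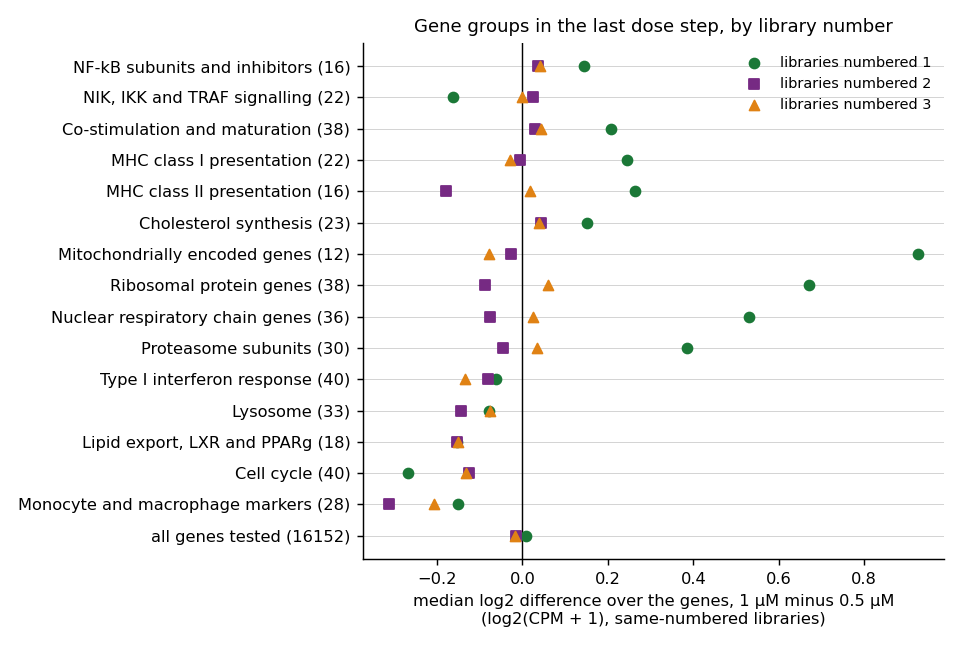
Median log2 difference, 1 µM minus 0.5 µM, over the tested genes of each group (number in brackets), separately for the libraries numbered 1, 2 and 3, on a log2(CPM + 1) scale. Mitochondrially encoded, ribosomal, respiratory chain and proteasome genes are high in the libraries numbered 1 alone, while macrophage, cell cycle, lipid, lysosome and interferon genes lie below 0 in all 3.

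Mitochondrially encoded, ribosomal, respiratory chain and proteasome genes were higher mainly in the libraries numbered 1. The mitochondrially encoded genes had a median of 0.40, with 0.93, -0.03 and -0.08 in the 3 same-numbered comparisons and -0.16 without library 1 of 1 µM. mt-Co1, a subunit of cytochrome c oxidase, measured 20321, 17458 and 19123 CPM at 0.5 µM and 39175, 17278 and 18217 at 1 µM. mt-Atp6 had an unadjusted p under 0.05 but lay between 1.07 and 3.89 CPM, and its reads may be shared with nuclear copies. The 12 mitochondrial genes tested summed to 39670 to 47386 CPM at 0.5 µM and to 89731, 38659 and 41159 at 1 µM.

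Ribosomal protein genes were all 38 higher, with a median of 0.22, but the same-numbered comparisons gave 0.67, -0.09 and 0.06, and the median was 0.03 without library 1 of 1 µM. Rps16 measured 382, 415 and 379.8 CPM and then 690.5, 408 and 433 (0.38, and 0.10 without library 1 of 1 µM), and such genes have processed pseudogenes that can share their reads. Nuclear respiratory chain genes gave a median of 0.17 and, without that library, -0.03, and proteasome subunits gave 0.14 and -0.01. Atp5h, of the ATP synthase, measured 295, 338 and 285 CPM and then 492, 335 and 323 (0.32, and 0.10 without it), and the proteasome ATPase Psmc2 79.1, 80.5 and 76.4 and then 117, 85.4 and 83.3 (0.28, and 0.0996 without it). Ndufs1, the largest subunit of complex I, went the other way within the same library, at 42.4, 39.3 and 40.0 CPM and then 27.6, 37.4 and 36.7 (-0.26, and -0.13 without it). The part of library quality in these values was not tested.

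A few stress genes showed the same library pattern. The metallothionein Mt1 measured 190.4, 209 and 211 CPM and then 396, 214 and 223, a difference of 0.45 ± 0.17 that was 0.10 without library 1 of 1 µM. Sqstm1, the autophagy receptor p62, measured 699, 739 and 698 CPM and then 1181, 808 and 775 (0.37 ± 0.13, and 0.15 without it). Hif1a, the oxygen-regulated transcription factor, measured 128, 107 and 109 CPM and then 78.3, 103 and 96.8 (-0.31 ± 0.11, and -0.20 without it). Of 27 genes of the unfolded protein response 24 were bounded, of 24 p53 targets 20, and of 28 glycolysis and hypoxia genes 21, with 0 called in any of these groups.

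Genes that had already responded at 0.1 µM were followed into the last step, which shares no library with that choice, although culture numbers recur. Relative to DMSO 6503 genes (40.3%) changed at 0.1 µM, 1149 of them by at least 2-fold upward and 1352 downward. The 1149 had a median last step of 0.02, with 11 higher and 11 lower at an unadjusted p under 0.05 (0.957% each, beside 2.17% and 3.22% of all genes). These numbers were 3 and 6 without library 1 of 0.5 µM, 5 and 11, 34 and 26, and 26 and 25 without library 1, 2 or 3 of 1 µM, and the median lay between -0.022 and 0.065 over the 6 libraries left out in turn. The 1352 had a median of -0.12, with 13 higher (0.962%) and 147 lower (10.9%), and without library 1 of 1 µM the median was -0.17 with 160 lower. The number higher was 29 without library 2 and 28 without library 3 of 1 µM. Their same-numbered comparisons gave -0.04, -0.08 and -0.06 on the log2(CPM + 1) scale. None was called in either group.

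Better expressed responders were bounded more often than all responders, but less often than all genes of at least 10 CPM, of which 91.9% were bounded. Of 529 upward responders of at least 10 CPM, 433 (81.9%) were bounded within 1.5-fold, against 42.6% of the 1149. At an unadjusted p under 0.05, 5 were higher (0.945%) and 2 lower (0.378%). Among all genes of at least 10 CPM these shares were 2.18% and 3.01%. Of 327 downward responders of that level 255 (78.0%) were bounded, against 31.8% of the 1352. At the same p 1 was higher (0.306%) and 60 were lower (18.3%), beside the same 2.18% and 3.01%. Some of the strongest downward responders had too few counts for a statement: Asgr2, a lectin subunit, went from 49.9 to 108 CPM in DMSO to between 0.331 and 0.751 CPM at the 3 doses, and the interval of its last step ran from -1.201 to 0.59. Mgl2, the lectin CD301b, measured 1.75, 2.94 and 1.89 CPM at 0.5 µM and 1.76, 1.18 and 1.69 at 1 µM, after 95.8 to 215 CPM in DMSO.

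**Figure D4:**
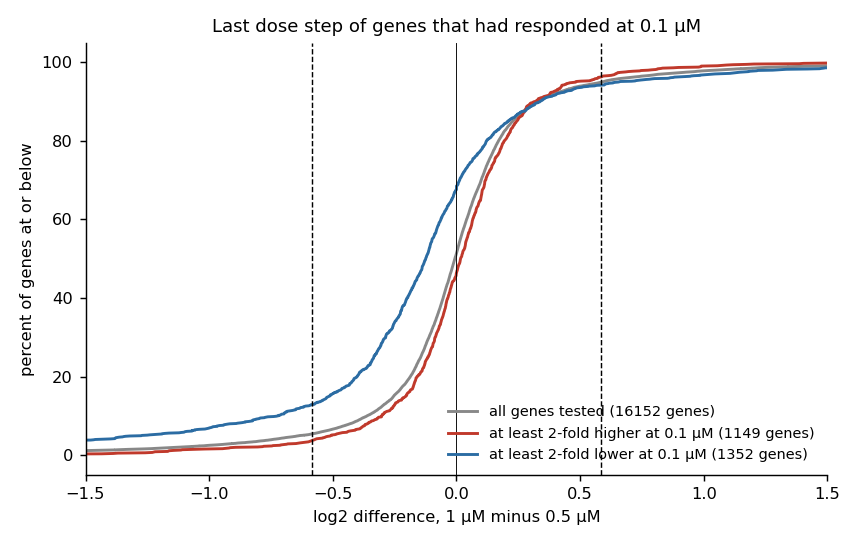
Percent of genes (vertical axis) at or below a given log2 difference, 1 µM minus 0.5 µM (horizontal axis), for all 16152 genes tested, the 1149 at least 2-fold higher at 0.1 µM than in DMSO and the 1352 at least 2-fold lower. Dashed lines mark 1.5-fold. The curve of the genes lower at 0.1 µM lies to the left of the others below 0, with a median of -0.12 against 0.02 and -0.01.

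Next to the step before, the last step was small, but it also covered less dose, 2-fold against 5-fold. From 0.1 to 0.5 µM 1849 genes (11.4%) had changed, 481 upward (2.98%) and 1368 downward (8.47%), and 1083 of them by at least 1.5-fold. The steps share the 0.5 µM libraries, so they are set side by side without a measure of likeness. Per 10-fold dose, the macrophage genes had a median slope of -0.94 in the last step and -1.31 in the one before, the cell cycle genes -0.76 and -1.69, the interferon genes -0.43 and -1.08, and the maturation genes 0.35 and 0.37. Without library 1 of 1 µM the slopes of the last step were -1.02, -0.42, -0.76 and 0.12 in that order. A test of the difference between the slopes called 0 of 16152 genes (0.0%), with a smallest adjusted p of 0.95 and 601 genes (3.72%) at an unadjusted p under 0.05, and DESeq2 called 2. The edgeR fit thus called no gene for a bend of the dose response at 0.5 µM, and with no filter on low counts it called 44.

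The genes with the smallest p for the difference of slopes illustrate its forms. Cd14, the LPS co-receptor, measured 61.8, 84.6 and 64.6 CPM at the lowest dose, then 22.8, 24.1 and 19.7, then 29.4, 22.2 and 20.6, so that the earlier fall was not followed by another. Pld4, an endolysosomal exonuclease of myeloid cells, measured 42.6, 58.1 and 65.5, then 14.4, 16.2 and 15.9, then 14.1, 14.1 and 12.3 CPM. Mfsd10, a membrane transporter of the major facilitator family, measured 16.9, 17.0 and 18.6, then 11.96, 12.001 and 11.23, then 15.4, 13.5 and 13.6 CPM. Frmd6, a FERM domain protein, measured 6.78, 7.12 and 7.36, then 10.6, 11.7 and 11.2, then 6.75, 9.40 and 9.86 CPM. None of these 4 passed the test of slopes.

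**Figure D5:**
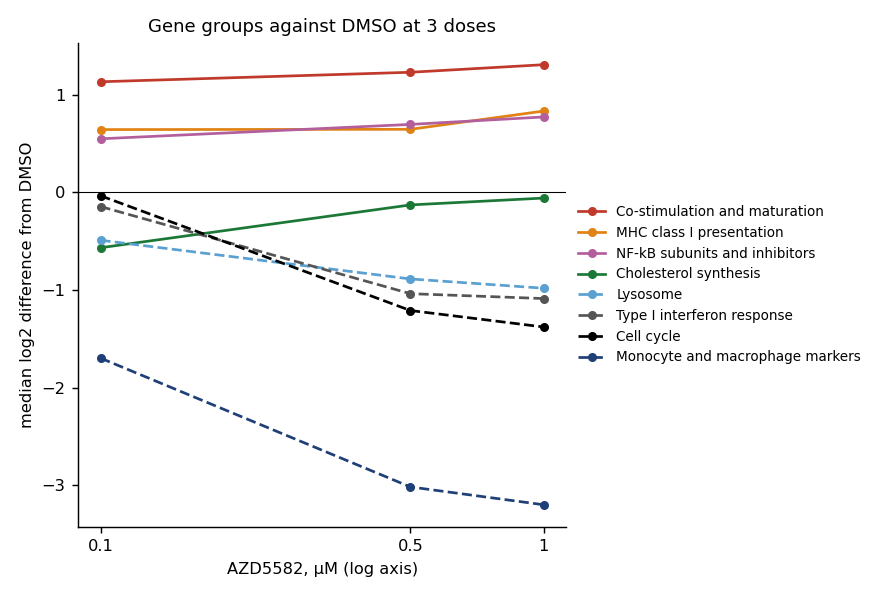
Median log2 difference from DMSO (vertical axis) over the tested genes of 8 groups at 0.1, 0.5 and 1 µM AZD5582 (horizontal axis, log scale). All points share the DMSO libraries. Most lines move less between 0.5 and 1 µM than between 0.1 and 0.5 µM, a shorter interval on this axis.

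Against DMSO the 2 doses gave similar totals, from the same DMSO libraries: 8641 genes (53.5%) had changed at 0.5 µM and 8899 (55.1%) at 1 µM. The maturation genes stood at a median log2 difference of 1.23 above DMSO at 0.5 µM and 1.31 at 1 µM, after 1.13 at 0.1 µM. The NF-kB genes stood at 0.70 and 0.77, the class I genes at 0.65 and 0.83, the lysosomal genes at -0.89 and -0.98, and the macrophage genes at -3.02 and -3.20. Without library 1 of 1 µM the last step of the class I genes had a median of 0.0039. The inhibitor gene Nfkbia, a classical target of the pathway, measured 337 to 440.0 CPM in DMSO, 1142 to 1376 at 0.5 µM and 1185 to 1500.1 at 1 µM.

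Markers of dendritic cells were present at both doses. Itgax (CD11c), Zbtb46, Flt3, Cd74 and H2-Ab1 had mean levels of 179, 206, 188, 5824 and 841 CPM at 0.5 µM and 160.5, 197, 181, 6408 and 878 CPM at 1 µM, and their groups overlapped. The 28 macrophage markers summed to 9497 to 10526 CPM at 0.5 µM and to 7280 to 8245 CPM at 1 µM, both under the 35021 to 41017 CPM of DMSO. Lyz2, with the values given above, made up a large part of the sums at 0.5 and 1 µM and of their difference. The sums therefore do not show how many of the markers were lower. The 22 neutrophil markers summed to 82.2 to 99.8 CPM and 75.3 to 125 CPM, the 10 B cell markers to 94.9 to 126 CPM and 111 to 130.5 CPM, and the 13 stromal and endothelial markers to 3.75 to 7.45 CPM and 4.47 to 5.68 CPM. Of the defining markers, Xcr1, Cd3e, Ncr1 and Hba-a1 fell under the filter on low counts, and the conventional dendritic cell marker Cd209a and the plasmacytoid marker Siglech were at or under 0.110 CPM. The part of a shift in cell types in the macrophage values was not tested.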

How the data were processed

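RNA was measured by poly(A) sequencing. Per the submitters' processing notes, reads were aligned with STAR 2.7.3a to GRCm39 and counted with HTSeq 0.12.4. The files deposited by the authors hold raw counts per gene, with no normalization. The sources used here state neither the annotation release nor the strand setting, so overlapping and antisense genes cannot be told apart. HTSeq's summary lines, 12.4% to 16.4% of reads in the 6 libraries, stayed out of library sizes and tests.

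Counts of the 15 GM-CSF libraries were fitted in 1 model of group means with edgeR 4.0.16 (TMM scaling, filterByExpr over all 5 groups, robust quasi-likelihood test), and p-values were adjusted by Benjamini-Hochberg across 16152 genes at a threshold of 0.05. The filter lets in genes that are low at 0.5 and 1 µM but high in another group. CPM values are scaled by TMM, with a factor of 0.79 for library 1 of 1 µM and 0.92 to 0.95 for the other libraries of 0.5 and 1 µM. A lower factor gives a higher CPM for the same counts. The ± of a log2 difference is its SE from the model weights and the moderated spread, and 95% intervals use the t quantile at the moderated degrees of freedom. Same-numbered libraries were compared on log2(CPM + 1). DESeq2 1.42.0 was an alternative. The procedure was checked on simulated counts.

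The comparison, the gene panel and the 39 gene lists were chosen with earlier results of these data known. Genes named were a panel of 26, the list members with the smallest p, the largest responders at 0.1 µM and the smallest p for the slopes. Further genes are said to be picked after their values were seen, or were list members named for what they encode, and some list members are not reported here. Symbols were matched by gene ID to GENCODE M21, and no coordinates or sequences are given because no result rests on them.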

Additional observations from a re-analysis of the deposited data

Results flagged for a closer look

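Reads that HTSeq set aside for low alignment quality were not part of any comparison above. They made up 12.1% of library 1 at 1 µM, above the highest DMSO library (9.15%), while the other 5 libraries of 0.5 and 1 µM had 8.22% to 8.89%. This was the library with 8.04% of its counts on mitochondrial DNA genes and with the isolated position on the first principal component. The part of this difference in the gene values was not tested.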

How the results depend on the processing

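The absence of calls depended on the filter and the tool. With no filter on low counts 77 genes were called (30 higher, 47 lower), 47 of them past 1.5-fold, and 44 for the slopes, with 1 upward and 33 downward responders; that fit gave a median of 225714 degrees of freedom against 17.5. DESeq2 called 8 genes (7 past 1.5-fold, 5 downward responders) and 2 for the slopes. Leaving out libraries gave 0 to 1 calls, the 1 being Slc9a9 without library 3 of 1 µM. It gave 7023 to 9267 bounded genes, responder medians of -0.0234 to 0.0647 upward and -0.1657 to -0.0951 downward, and 0 to 1 downward responders called or past 1.5-fold. The tighter bound of 0.32 on the log2 scale held for 3855 genes. The upward median was 0.0217 with the 6 libraries alone and 0.0235 with a filter of 1 CPM in 3 libraries, added after the data were seen, and the downward one was -0.0567 with no minimum fold at 0.1 µM. The cause was not tested. The other scalings and fits, including the one without the robust option (also added later), kept all calls at 0.

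With the replicate block 0 genes were called, as without it, and 9483 were bounded. Deviations of same-numbered libraries correlated at 0.0533, 0.185 and 0.543, and number 1 fell under 0.1 and did not correlate best with its own number, so these 2 doses were not treated as paired. Between 0.1 and 0.5 µM the values were 0.234, 0.294 and 0.537, and between 0.1 and 1 µM 0.175, 0.214 and 0.465. Between DMSO and 1 µM they were 0.231, 0.107 and 0.213, and all of these were best with their own number. Other comparisons did not match throughout. DMSO and 0.1 µM gave 0.0402, 0.181 and 0.0311, with numbers 1 and 3 not best with their own. DMSO and 0.5 µM gave 0.0729, 0.137 and 0.163, with number 1 not best. Day 8 failed to match for number 3 at 0.1 µM (0.0285) and number 2 at 1 µM (0.00183). Culture number took 50.5% of the summed squares of the 6 libraries. With the block the step from 0.1 to 0.5 µM had 2177 calls in place of 1849, and 1 µM against DMSO 9113 in place of 8899.

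Over single libraries or numbers left out, some near-zero log2 differences changed sign: Bcl2l1 -0.022 to 0.17, Birc2 -0.23 to 0.009, Birc3 -0.12 to 0.053, Birc6 -0.38 to 0.012, Cd14 -0.053 to 0.23, Cd74 -0.059 to 0.29, Cd80 -0.15 to 0.17 (and -0.001 with all 24 libraries), Cd86 -0.065 to 0.16, Flt3 -0.29 to 0.17, H2-Aa -0.082 to 0.34, H2-Ab1 -0.078 to 0.16, Il6 -0.13 to 0.22, Map3k14 -0.12 to 0.052, Ptgs2 -0.29 to 0.15, Relb -0.010 to 0.20, Tnfaip3 -0.32 to 0.059, Tnfsf4 -0.038 to 0.15, Traf3 -0.18 to 0.056, Xiap -0.26 to 0.006, Zbtb46 -0.13 to 0.045 and mt-Co1 -0.096 to 0.59. Genes below 10 CPM were less tightly measured, and 20.2% of them were bounded.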

Other observations

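Chemokine genes were the least tightly measured pathway described here after the mitochondrially encoded genes: of 22 tested, 5 were bounded within 1.5-fold and 0 were called. Cxcl9, a chemokine induced by interferon-gamma, measured 1.95, 1.48 and 1.19 CPM at 0.5 µM and 5.01, 1.96 and 2.37 at 1 µM, a difference of 1.02 ± 0.40 (adjusted p = 0.83) that was 0.51 without library 1 of 1 µM. Of 27 immediate early genes 20 were bounded and 0 had an unadjusted p under 0.05, and of 19 heat shock genes 14 were bounded and 0 had such a p.

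The second principal component of the 6 libraries held 23.2% of the variance and set the libraries numbered 3 apart, at 11.2 for 0.5 µM and 14.03 for 1 µM, with the other 4 between -9.89 and 2.62. With the libraries numbered 1 left out, dose took 22% of the summed squares, culture number 61.3% and the remainder 16.7%.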
